A study of Mus musculus with 3 samples.

Results

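The lysosomal genes described here are 36 mouse genes for enzymes, membrane proteins and proton pump subunits of the lysosome, followed through the macrophages and other leukocytes of the suprarenal aorta. They were taken by name: 4 subunits of the membrane sector of the proton pump (V0), 8 of its cytosolic sector (V1), 2 accessory subunits, 7 membrane proteins, 10 hydrolases, 2 cofactor precursors and 3 regulators. All 36 were among the 27998 genes of the files, and each had at least 1 UMI (unique molecular identifier, one counted RNA molecule) in each of the 3 libraries.

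Lysosomes are acidic vesicles in which hydrolases break down lipids, proteins and glycans that a cell has taken up or recycled. The vacuolar proton pump acidifies them, with a V1 sector that uses ATP and a V0 sector that carries protons through the membrane. In atherosclerotic aorta, macrophages take up lipoproteins and digest their lipids in this compartment, and the transcription factors TFEB and TFE3 are known to drive many lysosomal genes through a short promoter element.

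The control library pooled the suprarenal aortas of 5 chow-fed C57BL/6 animals. The room air library was made from 5 ApoE-/- mice given a high-fat Western diet for 16 weeks, and the aneurysm library from 4 ApoE-/- mice on that diet for 16 weeks that also inhaled cigarette smoke and had a measurable dilatation. Genotype and diet therefore changed together between control and room air, and smoke came together with the choice of dilated aortas between room air and aneurysm. Cells that were CD45+ CD31- or CD45- CD31+ were sorted from each pool, with a stated viability of 73%, 91% and 94%. With 1 library in each group no test of a condition was possible, and the intervals below cover counting error only.

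The files held 782, 1851 and 2842 cell barcodes and 2568192, 9998517 and 16698309 UMIs in control, room air and aneurysm, and 773, 1821 and 2775 cells were kept. The labels state 738, 1736 and 2685 cells. From 4 to 9 barcodes in a library were also present in another library. Apoe, the gene deleted in the ApoE-/- mice, had 26739 UMIs over all kept cells of the control library, 167 over those of room air and 210 over those of aneurysm. Levels below are UMIs of a gene per 1e6 UMIs of the summed cells (CPM). Markers fixed for each leukocyte class and for fibroblasts named 20 of the 23 clusters, and 3 (16, 17 and 20) stayed unnamed. Cluster 16, led by Tm4sf1, Cytl1, Eln and other stromal genes together with the endothelial gene Cldn5, held 46, 38 and 25 cells, so that cells of the CD45- CD31+ gate were few and not separated from stromal cells. Cell types had to be rebuilt from clusters, so their limits may differ from those of the study.

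The promoters of some of these genes carry the element that TFEB and its relatives are known to bind. RefSeq promoter sequences (GRCm38.p6, 250 bases before to 50 after the start site) were matched for 31 of the 36 genes. Atp6v1b2, Atp6v1c1, Atp6v1g1, Atp6v1h and Asah1 had no entry. The letters CACGTG, which read the same on both strands, were found in the promoters of 8 of those 31 genes (25.8%), against 8.09% of the 27025 genes in the table. All 8 also held the longer TCACGTG on either strand, which was found in 4.29% of all genes and contains the shorter motif. They are shown because they span several roles in the list: pump subunits of both sectors, a membrane protein, hydrolases and the calcium channel gene Mcoln1. Capitals mark CACGTG with a directly adjoining T before it or A after it, and all are read 5′ to 3′ on the strand of the gene.
Lamp1: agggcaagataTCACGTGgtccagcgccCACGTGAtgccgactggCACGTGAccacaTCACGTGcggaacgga
Mcoln1: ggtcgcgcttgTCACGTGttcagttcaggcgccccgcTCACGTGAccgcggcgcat
Atp6v0b: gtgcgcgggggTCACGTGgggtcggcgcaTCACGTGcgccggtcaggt
Atp6v0e: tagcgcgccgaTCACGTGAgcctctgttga
Atp6v1a: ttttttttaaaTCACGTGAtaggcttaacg
Gaa: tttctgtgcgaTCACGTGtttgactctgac
Glb1: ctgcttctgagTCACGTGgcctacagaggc
Lgmn: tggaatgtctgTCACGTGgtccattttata

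Lamp1 held 4 copies within 73 bases just before its start site (chr8:13159088-13159160, plus strand). Mcoln1 held 2 (chr8:3500436-3500491, plus strand), and Atp6v0b held 2 (chr4:117887330-117887377, minus strand). The single copies lay within the windows chr17:26676387-26676416 for Atp6v0e (plus strand), chr16:44139373-44139402 for Atp6v1a (minus strand) and chr11:119267811-119267840 for Gaa (plus strand). Those of Glb1 and Lgmn lay within chr9:114401018-114401047 (plus strand) and chr12:102439124-102439153 (minus strand). The copy of Atp6v0e began at position 4, after the start site. A stretch of 30 bases shortly after the RefSeq start site was found in the gene's annotated transcripts for the other 7 genes but not for Lgmn. These matches describe letters in a window, and binding was not measured.

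The 36 genes together made up their largest shares of RNA in macrophages and classical monocytes, among the classes with at least 25 cells in a library. Their summed UMIs were 1.26% of all UMIs in macrophage-like cells of control, 1.92% in room air and 1.86% in aneurysm. Classical-monocyte-like cells held 1.06%, 1.56% and 1.75%, and cDC1-like cells, the dendritic cells specialised in cross-presentation, held 0.957%, 1.30% and 1.23%. B-cell-like cells held 0.377%, 0.555% and 0.426%, and T-cell-like cells 0.277%, 0.502% and 0.338%. In every library the lymphocyte classes thus lay below each of these myeloid classes. Psap alone was a large part of these sums. In control, room air and aneurysm it had 4546, 5880.5 and 5604 CPM in cDC1-like cells. Classical-monocyte-like cells had 3544, 5189 and 5672 CPM of it, and macrophage-like cells 1708, 4738 and 4549. The order of the classes without Psap was not tested. Neutrophil-like cells held 1.02%, 1.47% and 1.5%, but that cluster also carried macrophage markers at 14475, 13924 and 12543 CPM (11 of 11 markers), against 22715, 18082 and 18346 CPM in macrophage-like cells, and their part in its share was not tested.

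Macrophage-like cells fell into 3 groups, formed without using any of the 36 genes. Lipid-associated-like macrophages (cluster 2, led by Spp1, Mmp12 and Gpnmb, genes of lipid-laden tissue macrophages) numbered 7, 203 and 282 in control, room air and aneurysm. Cluster 3, led by Ccl12 and Ifit3, numbered 11, 257 and 194. Resident-like macrophages numbered 287, 111 and 182, and these were different clusters in different libraries: cluster 9 (Ccl24, Lyve1, Cd163) held 279 of the control cells, while cluster 10 (Ccl8, Cd209f, Folr2) held 97 and 174 of those in room air and aneurysm. In cluster 10, 57.7% of room air cells and 54.6% of aneurysm cells had 5 or more UMIs of 7 B and T cell genes, against 2.51% of control cells in cluster 9.

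The lipid-associated-like cells stood apart in the share of each cell's RNA that came from the 36 genes. Its median was 2.41% in room air and 2.25% in aneurysm. Cluster 3 had medians of 1.52% and 1.44%. Resident-like cells had 1.28%, 1.37% and 1.31% in control, room air and aneurysm. The lower quartile of the lipid-associated-like cells, 1.90% in room air and 1.70% in aneurysm, was no lower than the upper quartile of cluster 3, 1.78% and 1.70%. These cells were also deeper, with a median of 7903 and 8436.5 UMIs against 5716 and 7151.5 in the other macrophage-like cells of the same libraries.

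**Figure D1:**
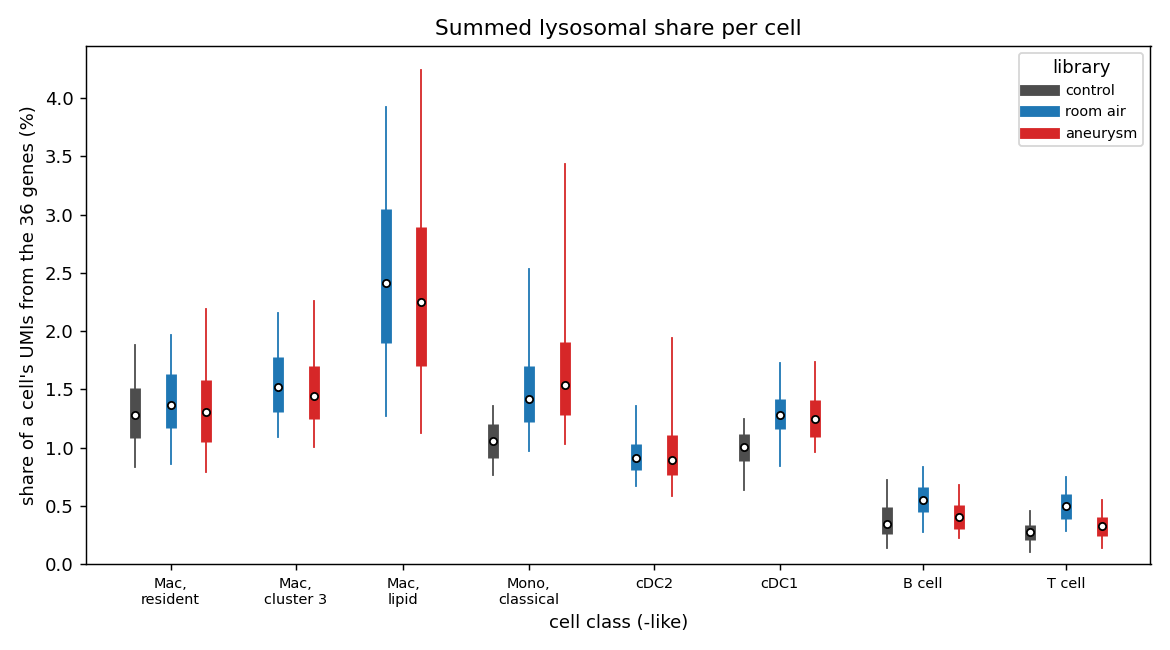
Share of a cell's UMIs from the 36 genes (%, y axis) by cell class (x axis) and library (colours): white points are medians over cells, thick bars the 25th to 75th percentile and thin lines the 5th to 95th percentile; classes with fewer than 25 cells in a library are left out. Lipid-associated-like macrophages have the highest medians, 2.41% in room air and 2.25% in aneurysm, and T-cell-like cells the lowest in each library.

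Gene by gene, the highest level among the named classes with at least 25 cells was in lipid-associated-like macrophages for 24 of the 36 genes in room air and for 22 in aneurysm. In control, where that group had too few cells, it was in resident-like macrophages for 19. A pair of hydrolases was highest in cDC1-like cells in every library. Ppt1, the thioesterase that removes palmitate from proteins during their breakdown, reached 849.6 CPM in cDC1-like cells of control, 1121 in room air and 1224 in aneurysm. Resident-like macrophages had 121, 191 and 185 CPM, and lipid-associated-like macrophages had 274 in room air and 288 in aneurysm. Man2b1, the lysosomal alpha-mannosidase, was also highest in cDC1-like cells (283, 285 and 258 CPM), but its counting intervals overlapped those of macrophages in each library. These were resident-like cells in control and lipid-associated-like cells in room air and aneurysm. In control Psap too was highest in cDC1-like cells, with 4546 CPM against 1642 in resident-like macrophages. Cd63, a tetraspanin of lysosomes and secretory granules, had 1969 and 1989 CPM in the mature-dendritic-cell-like cells of room air and aneurysm, beside 2541 and 2057 in lipid-associated-like macrophages.

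**Figure D2:**
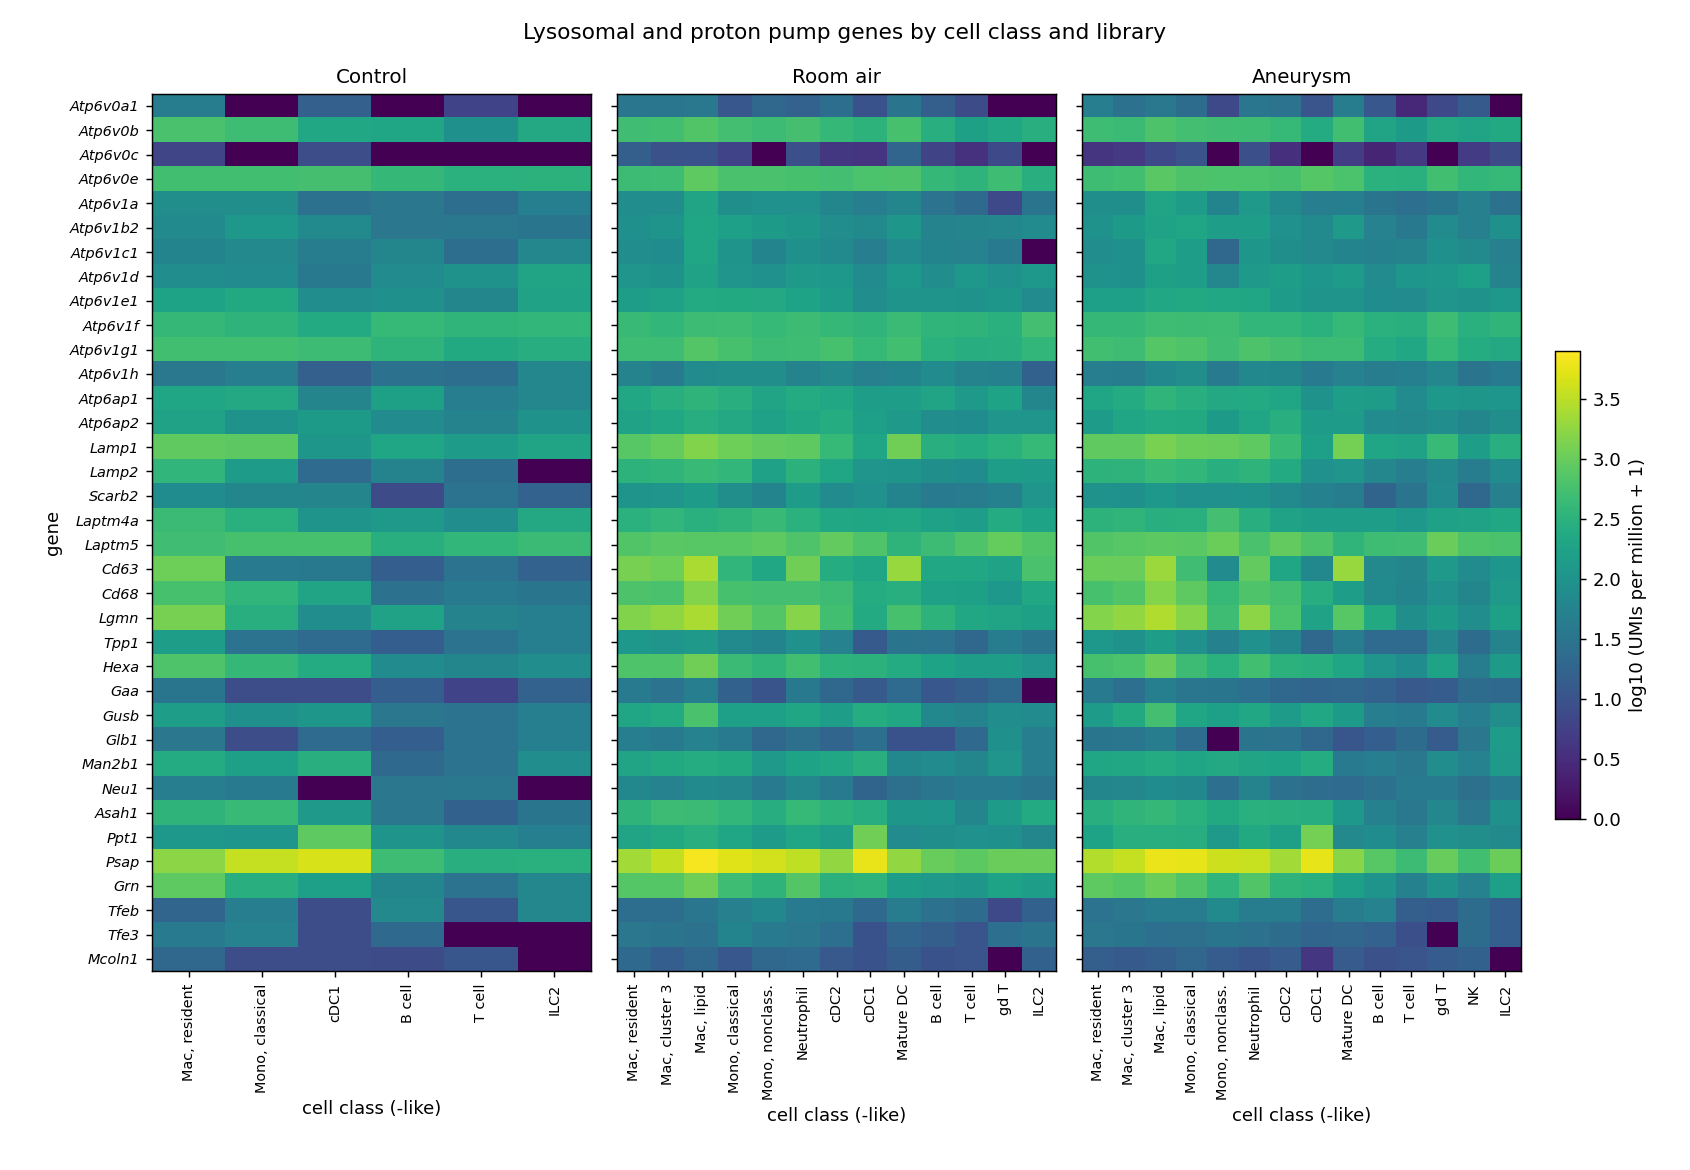
Levels of the 36 genes (rows) in each cell class with at least 25 cells (columns), 1 panel per library, as log10 of CPM plus 1. Rows are comparable across columns: most are brightest in lipid-associated-like macrophages in room air and aneurysm, while Ppt1 is brightest in cDC1-like cells (849.6, 1121 and 1224 CPM). Control has no such macrophage column, and 19 of the 36 genes there are highest in resident-like macrophages among the named classes.

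Against B-cell-like cells, macrophage-like cells had higher levels of most of the 36 genes, though not of all pump subunits. A gene was counted as higher or lower where its CPM differed at least 1.5-fold and the compared sums held at least 50 UMIs of it. By that count 21 of 28 genes were higher in control (39.6% of all genes measured there), 32 of 35 in room air (32.8%) and 32 of 35 in aneurysm (34.1%), and 0 were lower (20.7%, 19.1% and 17.6% of all genes). Cd63 had the largest median ratio over the libraries, with 77.2, 7.86 and 22.0 in control, room air and aneurysm. Cd68, a heavily glycosylated protein of macrophage lysosomes, followed with 22.2, 5.80 and 14.7. Grn, the precursor of the granulins, had 13.6, 7.02 and 9.02, Hexa, the alpha chain of beta-hexosaminidase, had 8.85, 4.82 and 7.23, and Asah1, the acid ceramidase, had 10.0, 3.94 and 7.06.

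The regulator Tfeb and 4 subunits of the proton pump had the lowest ratios of macrophage-like to B-cell-like cells. Tfeb had 20.8, 28.4 and 37.5 CPM in macrophage-like cells of control, room air and aneurysm and 68.3, 27.7 and 52.4 in B-cell-like cells, on 10 to 70 UMIs in the latter, and its ratio of macrophage-like to B-cell-like cells was 0.305, 1.02 and 0.716. The V1 subunit Atp6v1f had ratios of 0.973, 1.22 and 1.42. Atp6v1h, the regulatory V1 subunit, had 1.27, 0.766 and 1.24, Atp6ap1, an accessory subunit, had 1.17, 1.56 and 2.00, and Atp6v1d, of the central stalk, had 1.09, 1.63 and 1.70. Macrophage RNA was present in the droplets of lymphocytes. C1qa, C1qb and C1qc, which B cells lack, stood in B-cell-like cells at 12.4% of their macrophage-like level in room air. In control they stood at 2.98% and in aneurysm at 3.67%. This RNA is called free RNA below, though whether it came from droplets that also held a macrophage was not tested. Cd63, at 220.0 CPM in the B-cell-like cells and 1729 CPM in the macrophage-like cells of room air, was close to that background.

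Within the macrophages, lipid-associated-like cells carried more RNA of proton pump, membrane and hydrolase genes than the other macrophage-like cells of the same library. In room air 15 of 35 genes were at least 1.5-fold higher, beside 11.4% of all 6868 genes measured, and 0 were lower, beside 16.0%. In aneurysm 12 of 35 were higher, beside 11.2% of 7457 genes, and 0 were lower, beside 13.2%. The median log2 ratio of the 35 genes was 0.46 in room air and 0.48 in aneurysm, and that of all genes was 0.01 and 0.03. The same cells were grouped by their other genes, so that these are descriptions of a cluster and not tests. Control had 7 lipid-associated-like cells and was not compared.

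All 8 genes of the cytosolic V1 sector of the pump had ratios above 1 in both libraries. Atp6v1c1, whose product joins the sector to the rest of the pump, had 195 CPM in lipid-associated-like cells and 77.7 in other macrophage-like cells of room air, a ratio of 2.50 (95% interval 2.10 to 3.00). In aneurysm it had 214 and 84.9 CPM, a ratio of 2.52 (2.17 to 2.93). Atp6v1a, the catalytic subunit, had 189 against 80.1 CPM in room air (2.35, 1.97 to 2.82) and 186 against 86.2 in aneurysm (2.16, 1.85 to 2.52). Both subunits were thus more than 2-fold higher in both libraries, with intervals far from 1. Atp6v1b2, the partner of the catalytic subunit, had ratios of 2.01 and 1.54, and Atp6v1d 1.70 and 1.71. Atp6v1h had 1.75 and 1.49 and Atp6v1g1, of the peripheral stalk, 1.5 and 1.47, which put both on either side of the 1.5-fold limit. Atp6v1e1 (1.48 and 1.40) and Atp6v1f (1.21 and 1.25) stayed below it, so that 6 of 8 V1 genes were counted in room air and 4 of 8 in aneurysm.

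In the membrane sector, Atp6v0e was higher in lipid-associated-like cells, with 852 against 485 CPM in room air and 796 against 505 in aneurysm, ratios of 1.76 (1.63 to 1.89) and 1.58 (1.48 to 1.69). Atp6v0b, a proteolipid of the proton-carrying ring, had ratios of 1.33 and 1.35, and Atp6v0a1, the large subunit, 1.05 and 0.95. Atp6v0c, the main ring proteolipid, had 41 UMIs in macrophage-like cells of room air and 26 in aneurysm, too few to compare, and annotated near-copies named Atp6v0c-ps1 and Atp6v0c-ps2 make its counts uncertain. The accessory subunit genes had similar ratios, with Atp6ap1 at 1.34 and 1.59 and Atp6ap2 at 1.38 and 1.44.

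Among the membrane proteins, Cd68 and Cd63 differed most. Cd68 had 1484 CPM in lipid-associated-like cells and 618 in the others in room air (2.40, 2.26 to 2.56), and 1519 and 631 in aneurysm (2.41, 2.28 to 2.54). Cd63 had 2541 and 1133 CPM in room air (2.24, 2.14 to 2.35) and 2057 and 1035 in aneurysm (1.99, 1.90 to 2.08). Lamp1, a major glycoprotein of the lysosomal membrane, had 1429 against 899 CPM in room air (1.59, 1.5 to 1.68) and 1281 against 888 in aneurysm (1.44, 1.37 to 1.52). Its relative Lamp2 had ratios of 1.28 and 1.31, and Scarb2, the receptor that carries glucocerebrosidase to lysosomes, 1.35 and 1.26. Laptm4a went the other way: it was at 0.836 (0.75 to 0.931) and 0.811 (0.737 to 0.893) of its level in the other cells, the lowest ratio of a membrane gene, and its relative in leukocytes, Laptm5, was at 1.01 and 1.12.

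Of the hydrolases, Gusb had the highest ratio in both libraries. Gusb, the beta-glucuronidase that trims glycosaminoglycans, had 606 CPM in lipid-associated-like cells and 227 in the others in room air, a ratio of 2.67 (2.41 to 2.96). In aneurysm it had 538 and 180.1 CPM, a ratio of 2.99 (2.71 to 3.30), the largest among the 36 genes in both libraries. Hexa followed with 1.68 and 1.67, and Lgmn, the asparaginyl protease legumain, with 1.53 and 1.63. The other 7 hydrolases did not reach 1.5-fold in either library: Gaa, the acid alpha-glucosidase, had 1.39 and 1.49, Glb1, the beta-galactosidase, 1.26 and 1.30, Neu1, the sialidase, 1.31 and 1.24, and Tpp1, a tripeptidyl peptidase, 1.17 and 1.36. Ppt1 had 1.26 in both libraries, Man2b1 1.20 and 1.18, and Asah1 1.05 and 1.23. Psap, the precursor of the saposins that present lipids to hydrolases, had 6911 against 3142 CPM in room air (2.20, 2.14 to 2.26) and 6178 against 3195 in aneurysm (1.93, 1.89 to 1.98). Grn had 1.52 and 1.31.

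The regulators were below 1.5-fold in both libraries when all cells were kept. Tfeb had 33.3 against 24.8 CPM in room air (1.34, 0.925 to 1.94) and 44.0 against 32.1 in aneurysm (1.37, 1.04 to 1.82). Tfe3 had ratios of 0.896 (0.619 to 1.29) and 0.786 (0.567 to 1.08), and Mcoln1 1.22 (0.751 to 1.98) and 1.08 (0.671 to 1.74). With 35 to 113 UMIs of each gene in the lipid-associated-like cells of a library, differences of this size were near the limit of counting, and RNA levels say nothing of where the proteins were in the cell. By promoter motif, 4 of the 8 genes with CACGTG were at least 1.5-fold higher in room air and 3 in aneurysm. Their median ratios were 1.46 (1.22 to 2.35) and 1.46 (1.08 to 2.16), with the range in brackets. Of the 22 measured genes whose promoters lacked it 7 were higher in each library. Their median ratios were 1.34 (0.836 to 2.67) and 1.33 (0.786 to 2.99), so the ranges overlapped. These counts are to be read against the shares of all genes given above for the same comparisons. Genes outside the list were not split by motif, and its part in these ratios was not tested.

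**Figure D3:**
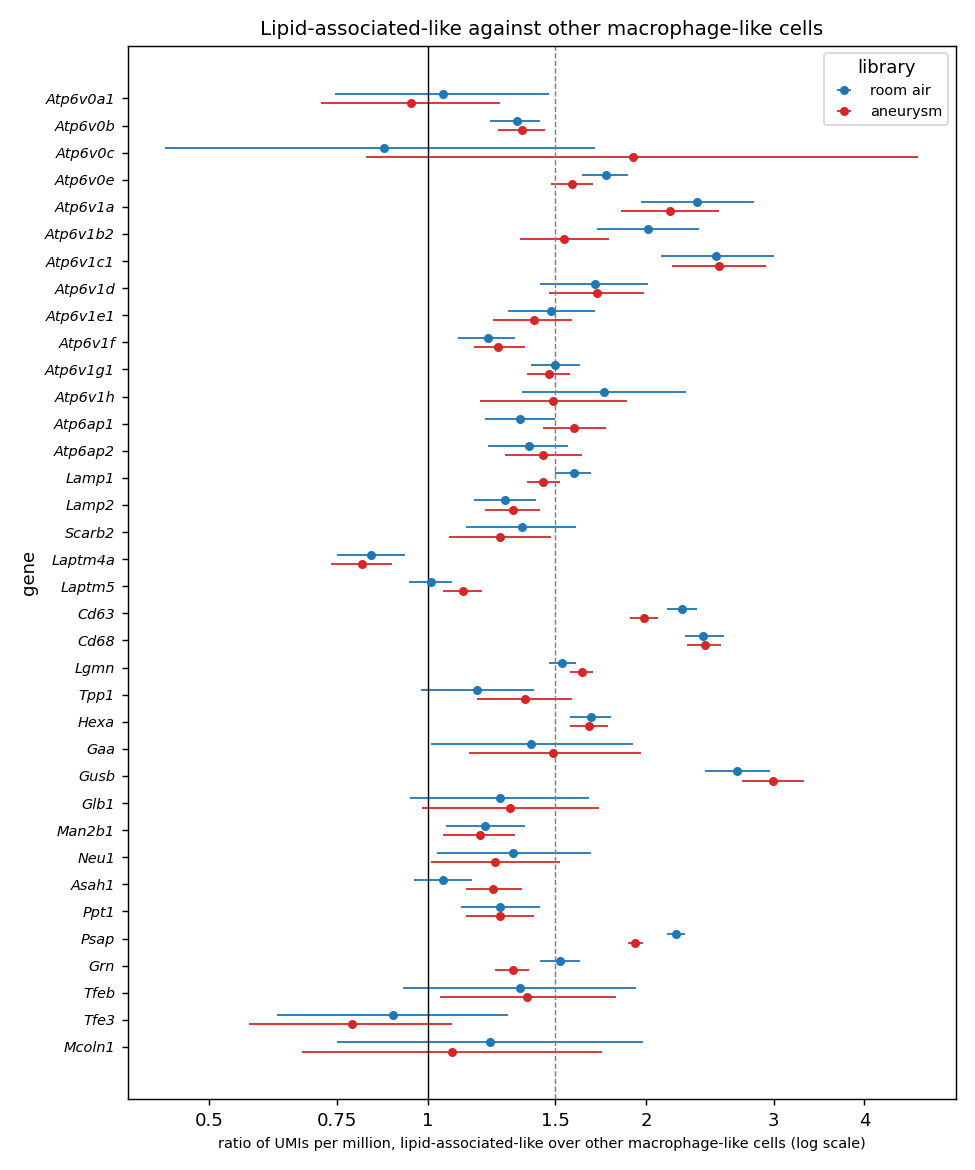
Ratio of CPM in lipid-associated-like cells over the other macrophage-like cells of the same library (log scale), for each of the 36 genes; points are ratios, bars exact 95% counting intervals, blue is room air and red aneurysm, and the dashed line is 1.5-fold. Gusb (2.67 and 2.99), Atp6v1c1 (2.50 and 2.52) and Cd68 (2.40 and 2.41) lie farthest to the right, and Laptm4a (0.836 and 0.811) and Tfe3 (0.896 and 0.786) to the left of 1 in both libraries.

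The picture was similar against cluster 3 alone, where 15 of 35 genes were higher in room air (11.6% of all genes) and 13 of 35 in aneurysm (11.8%), and 0 were lower in both (13.5% and 10.3%). Without the cells that had 5 or more UMIs of B and T cell genes, 11 of 35 genes were higher in room air and 13 of 35 in aneurysm. There Gusb stood at 2.55 and 2.77, Atp6v1c1 at 2.42 and 2.36, Cd68 at 2.30 and 2.27 and Psap at 1.95 and 1.98, while Tfe3 in room air moved from 0.896 to 1.33 and Tfeb in aneurysm from 1.37 to 1.51. With cells classed by their own markers in place of clusters, 8 genes were higher in room air. For this count, and for those without the cells holding lymphocyte genes, the share of all genes is not given here.

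Other lysosomal genes, given here from wider lists of the compartment, are to be read against the shares of all genes in these comparisons, 11.4% higher and 16.0% lower in room air and 11.2% and 13.2% in aneurysm. Of 11 cathepsins, the lysosomal proteases, 7 were higher and 2 lower in lipid-associated-like cells in both libraries. Ctsk, a collagen-degrading cathepsin, had 82.9 against 4.81 CPM in room air (17.2, 9.59 to 34.1) and 56.9 against 2.92 in aneurysm (19.5, 10.0 to 43.5). Ctsd had ratios of 3.22 and 2.76. Of the further hydrolases 8 of 25 measured were higher in room air and 8 of 27 in aneurysm (0 and 2 lower), led by Gla, the alpha-galactosidase (3.87 and 5.13), and Acp5, the tartrate-resistant acid phosphatase (2.95 and 3.00). The further pump subunits were higher for 2 of 4 and 3 of 4, with Atp6v0d2, an isoform typical of osteoclasts and multinucleated macrophages, at 7.35 (4.53 to 12.5) and 3.42 (2.26 to 5.29). Of the genes that sort enzymes to lysosomes 3 of 8 and 4 of 9 were higher, including the adaptor Gga2 (1.90 and 1.88) and, in aneurysm, the mannose phosphate receptor M6pr (1.62). Of the autophagy genes 0 of 13 were higher and 2 lower in room air, and 1 of 13 higher and 0 lower in aneurysm, which was Sqstm1, the autophagy receptor p62 (1.39 in room air and 2.00 in aneurysm). Further membrane proteins were higher for 3 of 15 and 4 of 16 and lower for 1 and 2, and the factors related to TFEB with the machinery that docks mTORC1 on lysosomes were higher for 2 of 11 and 1 of 12 and lower for 0.

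Between control and room air, macrophage-like cells as a whole held more RNA of 12 of 35 measured genes in room air, beside 23.1% of all 7506 genes, and less of 0, beside 10.6%. The median log2 ratio was 0.39 for the members and 0.14 for all genes. Psap had 1708, 4738 and 4549 CPM in control, room air and aneurysm, and its ratio of room air to control was 2.77 (2.65 to 2.91). Gusb had 148, 387 and 343 CPM and a ratio of 2.62 (2.24 to 3.09). In both genes the control library lay lowest and the ApoE-/- libraries lay close together.

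The V1 sector of the pump supplied 5 of the 12 genes. Atp6v1c1 had 58.2, 127 and 143 CPM in control, room air and aneurysm and a ratio of room air to control of 2.19 (1.69 to 2.86), and Atp6v1b2 had 71.2, 143 and 141 CPM and 2.01 (1.59 to 2.56). Atp6v1h (1.64), Atp6v1d (1.63) and Atp6v1a (1.54) brought the sector to 5 of 8, and the accessory Atp6ap1 had 1.54. Ppt1 had 127, 241 and 256 CPM and a ratio of 1.90 (1.60 to 2.28), and Cd63 1053, 1729 and 1499 CPM and a ratio of 1.64 (1.54 to 1.75). Lgmn (1.64) and Cd68 (1.62, from 607, 985 and 1034 CPM) completed the 12. Laptm5, with 512 CPM in control and 768 in room air, and Scarb2, at 1.49, lay just below the limit. With the mean over cells of each cell's share in place of summed UMIs, 7 genes were above it. The share of all genes by that measure is not given here.

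At the other end were genes of varied roles. Laptm4a had 459, 332 and 313 CPM in these libraries, a ratio of room air to control of 0.723 (0.654 to 0.80). Tfe3 had 39.9, 30.3 and 29.5 CPM (0.757, 0.537 to 1.08), Tpp1 150.2, 119 and 124 (0.792, 0.665 to 0.946) and Atp6v0a1 41.7, 33.9 and 36.1 (0.814, 0.584 to 1.15). Laptm4a and Tpp1 thus had intervals below 1 without reaching 1.5-fold. Tfeb (1.36, 0.875 to 2.21) and Mcoln1 (0.894, 0.549 to 1.51) had intervals that included 1, and Lamp1, with 855, 1123 and 1066 CPM, had a ratio of 1.31 (1.23 to 1.41).

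Much of this contrast moved with the lipid-associated-like cells, which were 7 of 305 macrophage-like cells in control and 203 of 571 in room air. Without them 4 of 35 genes were higher, beside 19.0% of all genes, and 0 lower, beside 8.71%. The 4 were Psap (1.86, 1.77 to 1.95), Ppt1 (1.81, 1.5 to 2.20), Gusb (1.57, 1.31 to 1.88) and Laptm5 (1.52, 1.38 to 1.67). The V1 sector then had 0 of 8 above the limit, and Cd68 was at 1.04 and Cd63 at 1.08. In resident-like cells alone, which were cluster 9 in control and mainly cluster 10 in room air, 2 of 33 genes were higher (13.9% of all genes), Ppt1 at 1.58 and Atp6v1h at 1.51 (0.951 to 2.41), and Laptm4a was lower at 0.664 (9.35% of all genes). Psap in these cells had 1642, 2289 and 2848 CPM in control, room air and aneurysm, and Gusb had 145, 196 and 137. Leaving out the lipid-associated-like cells did not even out the other groups. Cluster 3 held 11 cells in control and 257 in room air, and resident-like cluster 9 held 279 and 14. In cluster 3 of room air Psap had 3529.7 CPM and Gusb 241. The part of this shift in the 4 genes was not tested.

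In macrophage-like cells of room air against control, where 23.1% of all genes were higher and 10.6% lower, the wider lists differed among themselves. Of the further hydrolases 9 of 27 were higher and 1 lower, with Acp5 at 20.8 and 187 CPM (8.95, 5.97 to 14.1). Of the cathepsins 7 of 11 were higher and 1 lower. Ctsd had 529 and 2043 CPM, and Ctsk had 0 UMIs in control and 164 in room air. The further pump subunits were higher for 3 of 4, with Atp6v0d2 at 6.81 (2.84 to 21.3) and Tcirg1, a large V0 subunit, at 3.01 (2.11 to 4.44). The sorting genes were higher for 5 of 9 and lower for 1, with Gga2 at 3.91 (1.83 to 9.98) and Nagpa, which uncovers the mannose phosphate tag, at 1.60. The further membrane proteins were higher for 4 of 16 and lower for 3, with Cd164, a sialomucin, at 0.383 (0.307 to 0.480). The autophagy genes had 1 of 13 higher and 2 lower, Gabarapl1 at 0.580 (0.402 to 0.849) and Nbr1 at 0.665 (0.447 to 1.01), with a median log2 ratio of 0.17. The factors related to TFEB and the machinery that docks mTORC1 on lysosomes had 3 of 12 higher and 2 lower, with Fnip2 at 1.94 and Mitf at 1.83.

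Between room air and aneurysm, which shares the room air library with the comparison above, macrophage-like cells differed little in these genes. Few genes of any kind passed the limit, and the counts of members were near the shares of all genes. Of 36 genes 0 were at least 1.5-fold higher in aneurysm, beside 1.90% of all 8879 genes measured, and 1 was lower, beside 4.00%. That gene was Atp6v0c, with 9.47 CPM in room air and 4.60 in aneurysm, on 41 and 26 UMIs (0.486, 0.285 to 0.813), and it was not measured once the lipid-associated-like cells, cluster 3 or the cells with lymphocyte genes were left out. The summed UMIs of the 36 genes stood at a ratio of 0.969 (0.960 to 0.978).

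The highest ratio of aneurysm to room air was that of Tfeb, with 28.4 CPM in room air and 37.5 in aneurysm (1.32, 1.05 to 1.66). Atp6v1c1 had 1.13 (1.01 to 1.26), Neu1 1.09, Atp6v0a1 1.06, Ppt1 1.06 and Cd68 1.05 (1.01 to 1.09). At the low end were Glb1 with 0.781 (0.641 to 0.952), Mcoln1 with 0.787 (0.564 to 1.10) and Asah1, which had 437 CPM in room air and 354 in aneurysm, with 0.810 (0.760 to 0.863). The interval for Asah1 was narrow because it rested on 1893 and 2001 UMIs. With 1 library of each kind, differences of this size cannot be told apart from differences between pools of mice.

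Within each macrophage group the counts of members were again near the small shares of all genes. Among lipid-associated-like cells 0 of 35 genes were higher in aneurysm (3.38% of all genes) and 0 lower (4.01%), with a summed ratio of 0.936 (0.925 to 0.947). In cluster 3 it was 0 of 34 in both directions (2.94% and 6.56% of all genes), and in resident-like cells 0 of 34 (3.96% and 5.51%). Of the wider lists, Ctsf was lower in all macrophage-like cells (0.602, 0.441 to 0.819) and the calcium channel gene Mcoln2 higher (1.67, 1.10 to 2.58).

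**Figure D4:**
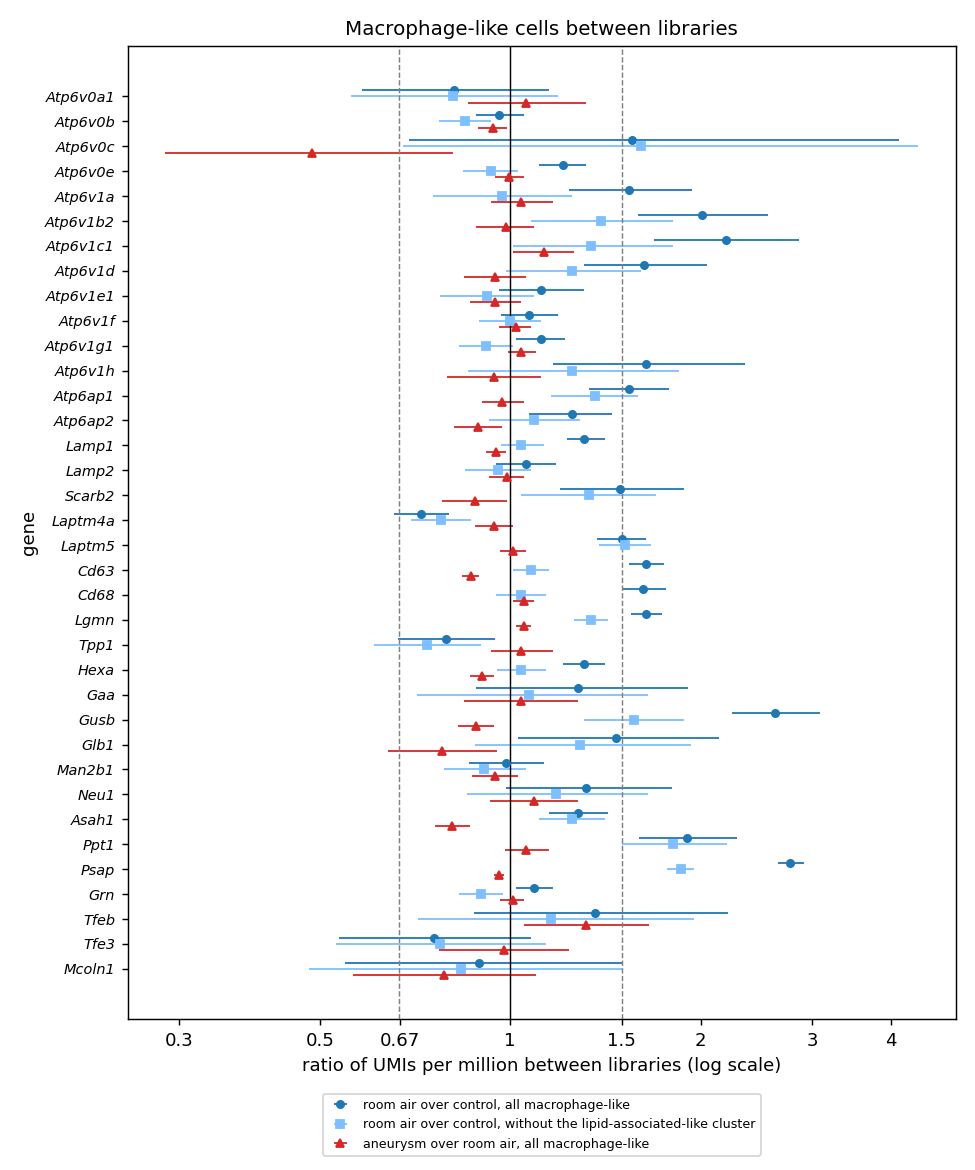
Ratios of CPM between libraries (log scale) in macrophage-like cells for the 36 genes, with exact 95% counting intervals: room air over control in all macrophage-like cells (dark blue circles) and without the lipid-associated-like cluster (light blue squares), and aneurysm over room air (red triangles); dashed lines are 1.5-fold. Psap moves from 2.77 to 1.86 and Cd68 from 1.62 to 1.04 without that cluster, and the red triangles lie near 1 except for Atp6v0c (0.486).

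Classical-monocyte-like cells had higher levels of several membrane, hydrolase and other lysosomal genes in room air than in control. Of 23 measured genes 8 were higher in room air (19.4% of all genes) and 0 lower (7.46%), on 39 and 69 cells. Cd63 had 37.5 CPM in the control library, 365 in room air and 506 in aneurysm, a ratio of room air to control of 9.75 (4.08 to 30.5). Lgmn had 292, 1114 and 1542 CPM and a ratio of room air to control of 3.81 (2.74 to 5.44), and Lamp2 135, 386 and 383 CPM and a ratio of 2.86 (1.75 to 4.96). The other 5 were Atp6ap2 at 2.30, Gusb at 1.77 (0.947 to 3.62), Ppt1 at 1.74 (0.992 to 3.26), Grn at 1.74 and Cd68 at 1.58. In Cd63, Lgmn and Lamp2 the control library lay lowest. The 11 macrophage markers summed to 1723 CPM in these cells in control and to 4602 and 4496 in room air and aneurysm, and their part in these differences was not tested. After subtracting the free RNA estimated for each droplet, Cd63 had 21.1 CPM in control and 293 in room air and Lgmn 279.9 and 1099. In aneurysm, compared with room air, 2 of 33 genes were higher (9.30% of all genes) and 2 lower (7.12%). Atp6v1a was at 1.62 (1.12 to 2.40), Gaa at 2.14 (0.916 to 6.09), Glb1 at 0.581 (0.315 to 1.12) and Tfe3 at 0.468 (0.272 to 0.825).

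The cDC1-like cells held more of 9 of 19 measured genes in room air than in the control library (20.3% of all genes) and less of 0 (5.47%), on 38 and 26 cells. These were Atp6v0b, Atp6ap1, Lamp1, Laptm4a, Cd63, Lgmn, Gusb, Asah1 and Grn. Cd63 (36.3, 193 and 65.2 CPM in control, room air and aneurysm) and Lgmn (79.9, 239 and 175 CPM) had the largest ratios, 5.32 (2.17 to 16.9) and 2.99 (1.59 to 6.23). Both are abundant in macrophages, and the macrophage markers in these cells stood at 806, 2072 and 1085 CPM (6, 11 and 11 of 11 markers with a UMI), highest in room air as well, and their part was not tested. In aneurysm 3 of 25 genes were lower than in room air (5.11% of all genes) and 0 higher (7.38%). They were Cd63 (0.338, 0.223 to 0.506), Scarb2 (0.552, 0.328 to 0.931) and Atp6ap1 (0.636, 0.433 to 0.936). In cDC2-like cells, on 125 and 276 cells, 1 of 34 genes was higher in aneurysm (6.13% of all genes), Glb1 at 1.65 (0.935 to 3.07), and 0 lower (5.75%). In mature-dendritic-cell-like cells, on 40 and 83 cells, 0 of 22 were higher (5.57%) and 2 lower (7.98%), Cd68 at 0.510 (0.360 to 0.722) and Gusb at 0.611 (0.415 to 0.905).

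T-cell-like and B-cell-like cells had their highest summed share of these genes in room air, where the estimated free RNA was also highest. Single genes could differ from the sum. In B-cell-like cells Atp6v1f had 409.5, 352 and 307 CPM in control, room air and aneurysm, and Laptm5 had 273, 469 and 495. The makeup of the T-cell-like class changed as well. Its cluster 5, led by Gzmk and Ccl5, held 9, 253 and 140 cells in control, room air and aneurysm. Cluster 6, led by Dapl1 and Cd8b1, held 43, 72 and 258, and cluster 7, led by Izumo1r and Cd4, held 46, 101 and 198. The part of this shift in the counts below was not tested. In T-cell-like cells, room air compared with control had 19 of 27 genes higher (35.9% of all genes) and 0 lower (4.64%). Aneurysm compared with room air had 0 of 31 higher (3.50%) and 13 lower (13.8%), among them Cd63 (0.281, 0.221 to 0.355) and Cd68 (0.354, 0.275 to 0.453). In B-cell-like cells these counts were 9 of 20 higher (18.5%) and 0 lower (6.68%), and then 1 of 28 higher (3.66%) and 6 lower (10.4%). From macrophage genes in lymphocytes, the free RNA was estimated at 103, 544 and 252 UMIs per droplet in control, room air and aneurysm, which was 5.05%, 20.3% and 8.50% of the UMIs of T-cell-like cells. With this amount subtracted, T-cell-like cells had 8 of 27 genes higher in room air (33.6% of all genes) and 2 lower (5.78%), then 5 of 31 higher in aneurysm (6.25%) and 5 lower (13.9%). B-cell-like cells had 4 of 20 higher (17.6%) and 3 lower (10.4%), then 6 of 28 higher (8.09%) and 3 lower (11.1%). After the subtraction each of these 4 comparisons had calls in both directions. The subtraction was cut off at 0, so some of these ratios rest on small remainders or none. In room air it took a median of 45.6% of a member's UMIs in B-cell-like cells and 48.6% in T-cell-like cells. For Cd63 in B-cell-like cells of control the estimate was 289.8% of the UMIs counted. Cd63 and Lgmn in T-cell-like cells of room air were at 0 CPM after the subtraction, while Laptm5, which lymphocytes are known to express, stood at 379.6 CPM in control and 665 in room air. In macrophage-like cells the same subtraction took 2.72%, 7.17% and 2.93% of the UMIs, and 14 of 35 genes were then higher in the room air library (23.3% of all genes).

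In the unnamed cluster 17, led by genes of cell division, lysosomal genes were lower in aneurysm than in room air. Of 27 measured genes 15 were at least 1.5-fold lower (12.4% of all genes) and 0 higher (9.43%), on 38 cells in room air and 45 in aneurysm. Lgmn had 1260.2 CPM in room air and 430.3 in aneurysm (0.341, 95% interval 0.292 to 0.398), Cd63 673 and 239 (0.355, 0.287 to 0.437), Hexa 654 and 244 (0.373, 0.302 to 0.459) and Cd68 602 and 226 (0.376, 0.302 to 0.467). The 36 genes were 1.28% of UMIs in this cluster in room air and 0.784% in aneurysm. Dividing cells of several kinds can share such a cluster, and its makeup in each library was not tested.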

How the data were processed

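Single-cell RNA was measured in 3 libraries (control, room air, aneurysm), 1 per group. The authors deposited counts of UMIs per gene and barcode, not normalized, from 10x 3' v2 libraries. The submitters' processing notes name Cell Ranger, STAR and mm10, and versions are not given in the sources used here. A 3' count holds 1 tag per molecule, so that no gene length enters, and strand use in counting is not stated. A smoke group without aneurysm was not analysed here.

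Barcodes with at least 200 genes and at most 10% mitochondrial UMIs were kept. Scrublet's automatic threshold marked 1, 2 and 0 barcodes, so the top-scored barcodes were removed at an assumed rate of 0.8% for every 1e3 barcodes (5, 27 and 64). Cells were clustered together without integration with scanpy 1.11.5 (counts scaled to 10000 per cell, 2000 variable genes, 30 components, 15 neighbours, Leiden resolution 1). The 36 genes, the wider lists and Apoe were left out of the variable genes. A cluster was named "-like" from at least 3 markers detected in at least 10% of its cells, with no more leading genes of another class than of its own.

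Within each library, the UMIs of a class were summed and given as CPM. Ratios carry exact conditional binomial 95% intervals (scipy 1.17.1), covering counting error only. Free RNA per droplet was estimated from C1qa, C1qb, C1qc, Csf1r, Adgre1 and Ms4a7 in B-cell-like and T-cell-like cells. The ratio and its interval were tested on simulated data. Every member may be named. Full values are given for the 6 highest and 4 lowest ratios between libraries, the 5 highest and 5 lowest against B-cell-like cells, the 5 highest and 3 lowest in lipid-associated-like cells, and Lamp1, Cd68, Tfeb, Tfe3 and Mcoln1, and for each wider list the 2 genes with the largest absolute log2 ratio and at least 100 UMIs. Some genes that this rule names are not reported here. The members and all lists were chosen with earlier results of these data known. Promoters are RefSeq's (GRCm38.p6).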

Additional observations from a re-analysis of the deposited data

How the results depend on the processing

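Counts of members past 1.5-fold were recomputed under 14 settings. The shares of all genes under these settings are not given beside the counts, which therefore describe the members alone. Of 112 values, 97 stayed within 1.5 times of the main count. Counts that were 0 in the main setting and stayed 0 are among these 97. With a fold of 2, room air against control had 4 members higher, and 7 were higher in lipid-associated-like cells of room air and 4 in those of aneurysm. With the mean over cells of each cell's share, room air against control had 7 higher and aneurysm against room air 1. With cells thinned to 1500 UMIs, 1 was higher and 0 lower in aneurysm. Thinning left out 130 control cells. With cells classed by their own markers, 2 were lower in room air against control, 0 lower in aneurysm than in room air, and 8 higher in lipid-associated-like cells of room air. That setting left 105 control macrophage-like cells. Among settings chosen after seeing the data, leaving out the lipid-associated-like cluster gave 4 higher in room air and 0 lower in aneurysm. Leaving out cluster 3 gave 1 lower in room air and 0 lower in aneurysm, and leaving out macrophage-like cells with 5 or more UMIs of B and T cell genes gave 0 lower in aneurysm. Beyond fewer cells or a stricter fold, the cause was not tested. No paired analysis was possible because each group has 1 library, and no replicate could be left out. Depth limits Atp6v0c, Mcoln1, Tfeb, Gaa, Glb1, Atp6v1h, Tfe3 and Atp6v0a1, with 7 to 48 UMIs each in control macrophage-like cells.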

Other observations

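Cluster 20, also unnamed and led by Retnla, Lyz1 and Ear2, held 31, 1 and 12 cells in control, room air and aneurysm. The 36 genes were 0.797% of its UMIs in control and 1.07% in aneurysm.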
